A study of Mus musculus with 9 samples.

Results

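TCF/LEF transcription factors, beta-catenin and the feedback targets of Wnt signalling were followed in the RNA of capillaries and their surrounding cells at the ossification front (OF) of the mouse femur. The 10 genes were chosen by name out of the 39179 genes counted: the factors Tcf7, Lef1, Tcf7l1 and Tcf7l2, the co-activator Ctnnb1, and the targets Axin2, Nkd1, Nkd2, Notum and Apcdd1. They were proposed with the comparison of the ages in these same libraries already known, so their values by age are a description and no test of the group is drawn from them. Of the libraries, 5 were juvenile (mice 4 weeks old) and 4 adult (mice 12 weeks old), in a study of how the vessel niche differs between growing and grown bone. Mice of both ages were of C57BL/6 origin and carried the reporter Tg(TIE2GFP)287Sato/J, in which the Tie2 promoter drives GFP in endothelium. The GFP signal only guided the laser, and every cut piece held neighbouring cells as well, so each library is a mixture in which fewer cells of a type and less RNA per cell cannot be told apart.

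In canonical Wnt signalling, a Wnt ligand at a Frizzled and LRP receptor pair stops the destruction complex from breaking down beta-catenin, which then enters the nucleus. TCF/LEF proteins sit on DNA at their target genes, where they repress transcription with Groucho/TLE partners and activate it once beta-catenin binds them. Several of the genes switched on in this way encode inhibitors of the pathway itself, and Wnt signalling is known to favour bone formation by cells of the osteoblast lineage.

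Each library held between 4856833 and 8077362 counts, and a floor of 3 counts corresponded to 0.371 to 0.618 CPM, counts scaled to the library total. No sequencing batch or date was given. The Y-linked gene Ddx3y had 524 counts in juvenile replicate 4 and 439 in juvenile replicate 5, where Xist had at most 11, whereas the other 7 libraries had 2965 to 6598 on Xist and at most 1 on Ddx3y. All libraries with Y-linked counts were thus juvenile. The fold changes of Tcf7, Tcf7l2, Axin2, Nkd2 and Notum and the counts of called genes are given with and without them. Mean levels, shares and spreads by age include them. The endothelial markers were present in every library, with a summed level of 613 to 967 CPM at 4 weeks and 920.2 to 1057 CPM at 12 weeks, and 0 of 10 passed edgeR's test between the ages, with 0 at an unadjusted p under 0.05. The 12 osteoblast markers summed to 166259 to 195136 CPM at 4 weeks and 70562 to 98215 CPM at 12 weeks. This sum is mostly Col1a1 and Col1a2, and Bglap and Bglap2 among the 12 were lower at 4 weeks in edgeR's test. Neutrophil markers summed to 17.5 to 65.7 CPM at 4 weeks and 107 to 4754 CPM at 12 weeks. Erythroid markers summed to 331 to 2354 CPM at 4 weeks and 4362 to 37870 CPM at 12 weeks. Macrophage markers summed to 442 to 800 CPM and 1136 to 1963 CPM, so the adult pieces held more RNA of all 3 marker lists.

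Tcf7, which encodes TCF1, a factor also known from T cells, showed the clearest separation of the ages among the 10 genes. Normalized counts, meaning counts divided by the scaled size of the library, were 812, 790.2, 835, 868 and 966 in juvenile replicates 1 to 5. They were 175, 386, 119 and 107 in adult replicates 1 to 4. The juvenile libraries lay close together, the adult ones were spread more widely, and no adult value reached the lowest juvenile one. On average the juvenile level was 854 ± 68.7 (SD, n = 5) against 197 ± 130 (SD, n = 4) in adults, and the fitted log2 fold change of juvenile over adult was 2.12 (SE 0.35, 95% interval 1.37 to 2.88), which is 4.36-fold. The gene (ENSMUSG00000000782) lies at chr11:52252371-52283014 on the minus strand of GRCm38.

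Lef1, the family member that mostly acts as an activator, was less clearly separated. Juvenile replicates had 271, 425, 240.4, 273 and 274 normalized counts, and adult replicates had 128, 122, 305 and 49.5. Adult replicate 3 lay above 4 of the 5 juvenile libraries, so the ages overlapped. The log2 fold change was 0.97 (SE 0.44). With 1 library left out it ranged from 0.66, without adult replicate 4, to 1.56, without adult replicate 3. In adult replicate 3 the B lineage markers were also highest, at 265 CPM. They had 22.7 to 105 CPM in the other adult and 34.6 to 68.7 CPM in the juvenile libraries. Lef1 is a known gene of B cell precursors, and the part of such cells in its value was not tested. The gene (ENSMUSG00000027985) lies at chr3:131110471-131224356 on the plus strand.

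Tcf7l1, known chiefly as a repressor, had the opposite sign. Its normalized counts were 58.0, 144, 90.8, 149.6 and 122 in juvenile and 244, 43.0, 141 and 294 in adult libraries. Adult replicates 1 and 4 lay above every juvenile library and adult replicate 2 lay below all of them, so the adult group enclosed the juvenile range. The log2 fold change of -0.68 had an SE of 0.51, and its 95% interval of -1.78 to 0.43 included differences in both directions. Of its exons 4.56% overlap the antisense gene Gm15401, which had 3 to 83 counts.

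Tcf7l2, which encodes TCF4, was present at a similar mean level at both ages. Juvenile libraries had 906, 837, 932, 762 and 702 normalized counts. Adult libraries had 596, 1276, 634 and 1032, and thus fell both above and below the whole juvenile range. The log2 fold change was -0.09 (SE 0.23, 95% interval -0.60 to 0.41), an interval that leaves room for a change of moderate size either way. Its sign turned to 0.12 without adult replicate 2 and to 0.015 without juvenile replicates 4 and 5. Tcf7l1 (ENSMUSG00000055799) lies at chr6:72626378-72789254 on the minus strand and Tcf7l2 (ENSMUSG00000024985) at chr19:55741820-55933654 on the plus strand.

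**Figure D1:**
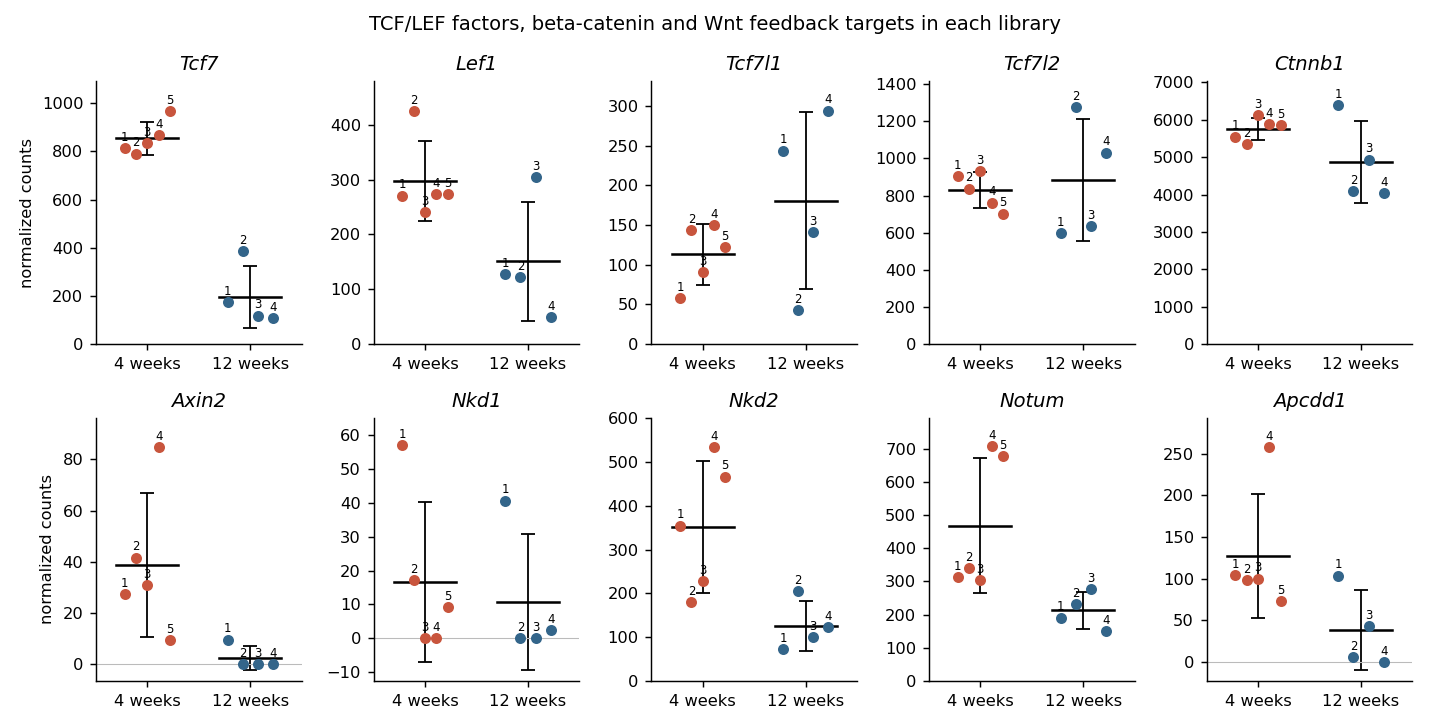
Normalized counts of the 10 genes, with 1 point per library labelled by its replicate number, juvenile in red and adult in blue, and bars for the mean ± SD (n = 5 and n = 4). The ages do not overlap for Tcf7 and Notum and overlap for the other 8 genes, and 3 of the 4 adult libraries sit at 0 for Axin2.

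The make-up of the family within a library does not depend on how libraries are scaled to each other, so each factor was also expressed as a percent of the sum of the 4, in counts per kilobase of merged exons. Tcf7 took 67.5%, 62.5%, 67.0%, 67.9% and 72.1% of this sum in the juvenile libraries and 31.5%, 46.3%, 24.0% and 17.1% in the adult ones. On this scale Tcf7 was the largest component in all 5 juvenile libraries. In adult libraries Tcf7l2 was the largest in replicates 3 and 4, and both factors took about the same share in replicate 1 (31.5% and 32.2%) and replicate 2 (46.3% and 45.8%).

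The mean Tcf7 share was 67.4% ± 3.40 (SD, n = 5) at 4 weeks and 29.7% ± 12.6 (SD, n = 4) at 12 weeks, a difference of 37.7 percentage points. Tcf7l2 took 19.7% ± 2.95 and 41.4% ± 7.64, and its shares of 15.7% to 22.5% in juvenile and 32.2% to 49.2% in adult libraries did not overlap. The shares of a library add up to the whole, so a smaller share of Tcf7 means a larger share of the others together. The normalized counts of Tcf7l2 itself overlapped between the ages, with a log2 fold change of -0.09 (SE 0.23). For Tcf7l1 the shares were 5.93% ± 1.93 and 20.8% ± 12.8, with adult replicate 2, at 3.45%, inside the juvenile range. The Lef1 share differed by -1.005 percentage points, well within the spread of its adult values (2.36% to 18.4%).

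The sum of the 4 factors was 72.6 ± 2.51 CPM per kilobase (SD, n = 5) at 4 weeks and 40.3 ± 8.96 (SD, n = 4) at 12 weeks, without overlap. The levels of Tcf7l2 overlapped between the ages. The ratio of Tcf7 to Tcf7l2, per kilobase, was 2.99 to 4.596 in juvenile and 0.347 to 1.01 in adult libraries. Without division by exon length, the Tcf7 share was 40.9% against 13.4%, since Tcf7l2 has the longer merged exons (8775 against 2625 bases). On that undivided scale Tcf7l2 exceeded Tcf7 in juvenile replicates 1, 2 and 3, and the summed CPM of the 4 factors, 298 to 328 at 4 weeks and 195 to 299 at 12 weeks, overlapped. The difference between the ages in the Tcf7 share was thus present on both scales, while the rank of Tcf7 and the separation of the sums depended on the division by length. These shares are built from the counts of the same comparison and carry no test.

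**Figure D2:**
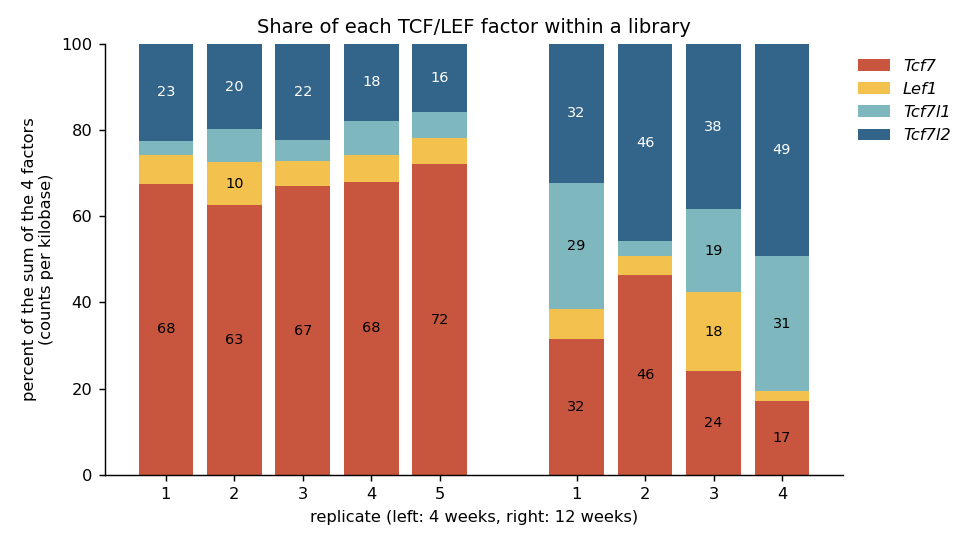
Each bar is 1 library and shows the percent of the summed TCF/LEF counts per kilobase taken by each of the 4 factors, with 5 juvenile libraries on the left and 4 adult libraries on the right. Tcf7 takes 62.5% to 72.1% of every juvenile bar and 17.1% to 46.3% of the adult bars.

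Since Tcf7 and Lef1 are also lymphocyte genes, T cell markers were read beside them. Of 12 such markers 3 passed the filter on low counts and 0 were called in edgeR's test, with 0 at an unadjusted p under 0.05. Their summed level was 5.82 to 19.5 CPM in juvenile and 22.1 to 56.7 CPM in adult libraries, the opposite direction to Tcf7. Cd3e had at most 4 counts and Cd8a at most 2 in any library. Cd3d had 0 to 5 counts in juvenile libraries and 104, 1, 58 and 74 in the adult ones. The part of T cells in the values of Tcf7 and Lef1 was not tested.

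The summed osteoblast markers moved in the same direction as Tcf7, with 6 of the 12 higher and 2 lower at 4 weeks in edgeR's test. The part of osteoblasts in the Tcf7 value was not tested. Set against the mean log2 CPM of the osteoblast list in the same library, Tcf7 was 1.89 log2 units higher at 4 weeks, with no overlap between the ages (-4.04 to -3.70 against -6.56 to -4.68). The mean of that list, whose markers differed in both directions, was 10.9 to 11.01 in juvenile and 10.4 to 10.9 in adult libraries and thus moved little where its summed CPM moved much, so this scale does not account for the osteoblast share. Set against the endothelial list the difference was 2.33, again with no overlap. Lef1 differed by 0.80 and Tcf7l2 by -0.44 on the osteoblast scale, and both overlapped between the ages. Chondrocyte markers were highest in adult replicate 2, at 4788 CPM against 620 to 1105 CPM in the other adult libraries. The same library had the lowest adult sums of neutrophil (107 CPM), erythroid (4362 CPM), macrophage (1136 CPM), B lineage (22.7 CPM) and adipogenic stroma (328 CPM) markers. Its T cell and megakaryocyte sums were not the lowest. That library also had the highest adult value of Tcf7, Tcf7l2 and Nkd2 and the lowest of Tcf7l1. The part of any of these cell types in those values was not tested.

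Promoter windows of 300 bases, from 250 before to 50 after a transcript start in RefSeq on GRCm38.p6, were searched on both strands for the TCF heptamers ATCAAAG and TTCAAAG. Windows were available for 8 of the 10 genes, and Notum and Apcdd1 had none. Most windows belonged to the factors and Ctnnb1, and the feedback targets Axin2, Nkd1 and Nkd2 had 1 each. None of the 14 windows held a heptamer, against 8.65% of all 32851 windows. With so few windows no lack of sites is read from this. The shared core TCAAAG, which both heptamers contain, occurred in 1 member window, an internal start of Lef1, against 16% of all windows. Both matches are shown because they are the only ones in the windows searched, with the core in capitals, on the plus strand and 180 and 120 bases before that start, in sequence that lies within Lef1 but in none of its annotated exons.
Lef1, chr3:131156102-131156131: taaaatacatggTCAAAGgaaaataggtat
Lef1, chr3:131156162-131156191: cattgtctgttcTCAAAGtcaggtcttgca
A match of letters is not a binding site, and the absence of a match concerns these short windows alone.

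Ctnnb1 encodes beta-catenin, the co-activator through which TCF/LEF factors switch on transcription and also a part of adherens junctions. It had 5552.5, 5354, 6123, 5891 and 5861 normalized counts in juvenile and 6384, 4099, 4935 and 4033 in adult libraries. Adult replicate 1 was the highest of all 9 libraries, and the other 3 adult libraries lay below the juvenile range. The means of 5756 ± 303 (SD, n = 5) and 4863 ± 1094 (SD, n = 4) gave a log2 fold change of 0.24 (SE 0.16, 95% interval -0.11 to 0.59). Set against the osteoblast list it was -0.15 and against the endothelial list 0.30, so its sign depended on the reference. Of the Ctnnb1 exons (ENSMUSG00000006932, chr9:120929216-120960507, plus strand), 14.6% overlap exons of Ulk4 on the opposite strand. The library kit does not keep strand, so reads of Ctnnb1 and Ulk4 in the shared stretch cannot be told apart. Ulk4 had 2064 to 3935 counts, with a log2 fold change of -0.02 (SE 0.17).

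Axin2, a scaffold of the destruction complex that is widely used as a readout of canonical Wnt signalling, was scarce. Juvenile libraries had 24, 46, 23, 72 and 7 raw counts. Adult replicate 1 had 13 counts and the other 3 adult libraries had 0, which allows up to 3 counts each. In normalized counts juvenile values were 27.3, 41.6, 30.7, 84.8 and 9.31 and that of adult replicate 1 was 9.43, so the ages overlapped at their edge. The log2 fold change of 3.93 had an SE of 1.43 and a 95% interval of 0.85 to 7.02. Without adult replicate 1 every adult library was at 0, and no fold change is given for that case. Axin2 (ENSMUSG00000000142) lies at chr11:108920349-108950783 on the plus strand.

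Nkd1 and Nkd2 encode the naked cuticle proteins, which bind Dishevelled and dampen the signal. Nkd1 had 50, 19, 0, 0 and 7 raw counts in juvenile and 56, 0, 0 and 3 in adult libraries, too few to pass the filter on low counts, and no fold change was fitted. Replicate 1 held most of the Nkd1 counts at each age. Nkd1 (ENSMUSG00000031661) lies at chr8:88521354-88594884 on the plus strand.

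Nkd2 was better measured, with 355, 179.9, 228, 534 and 467 normalized counts in juvenile and 72.5, 204, 99.4 and 123 in adult libraries. Only adult replicate 2 reached into the juvenile range, above juvenile replicate 2. Mean levels of 353 ± 151 (SD, n = 5) against 125 ± 56.9 (SD, n = 4) corresponded to a log2 fold change of 1.502 (SE 0.41). Nkd2 (ENSMUSG00000021567) lies at chr13:73818534-73847631 on the minus strand.

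Notum encodes a secreted carboxylesterase that removes the lipid from Wnt proteins and so inactivates them. It had 313, 341, 304.5, 707 and 677 normalized counts in juvenile and 191, 232, 277 and 150.2 in adult libraries. Every juvenile library lay above every adult one, with a narrow gap between juvenile replicate 3 and adult replicate 3. The log2 fold change was 1.14 (SE 0.34). Of the Notum exons (ENSMUSG00000042988, chr11:120653788-120661175, minus strand), 29.4% overlap the antisense gene Notumos and 8.72% the antisense gene Myadml2os. These genes had 11 to 90 and 21 to 126 counts, against 191 to 600 for Notum, and reads of the shared stretches cannot be assigned to a strand. Their log2 fold changes had the same sign as that of Notum, 1.56 (SE 0.68) for Notumos and 1.32 (SE 0.60) for Myadml2os, and their part in the Notum value was not tested.

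Apcdd1 encodes a membrane glycoprotein that binds Wnt and its co-receptor and inhibits the pathway upstream. Its normalized counts were 105, 98.5, 100.2, 258 and 73.2 in juvenile and 104, 6.29, 43.5 and 0 in adult libraries. Juvenile replicate 4 stood above the other juvenile libraries and adult replicate 1 lay inside the juvenile range, so the ages overlapped. The log2 fold change of 1.72 had an SE of 1.02 and a 95% interval of -0.49 to 3.93. Apcdd1 (ENSMUSG00000071847) lies at chr18:62922231-62961179 on the plus strand.

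Juvenile replicates 4 and 5, the libraries with Y-linked counts, differed from the other 3 juvenile libraries for several of these genes. They had more Notum (677 to 707 against 304.5 to 341 normalized counts), more Nkd2 (467 to 534 against 179.9 to 355) and somewhat more Tcf7 (868 to 966 against 790.2 to 835). Tcf7l2 was lower in them, with 702 to 762 against 837 to 932. Without these libraries the log2 fold change became 0.59 for Notum and 1.03 for Nkd2, whereas it was 2.05 for Tcf7 and 3.73 for Axin2. Among the feedback targets, Notum and Nkd2 thus changed most when they were left out, and the part of sex in this was not tested.

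Of the 10 genes, 9 could be fitted, since Nkd1 did not pass the filter. Only Tcf7 passed an adjusted p of 0.05 in edgeR's quasi-likelihood test over 13418 genes with Benjamini-Hochberg adjustment (adjusted p = 0.00636), beside 3.88% of all genes tested (1.99% higher and 1.89% lower at 4 weeks). The next in order were Nkd2 and Notum, with adjusted p of 0.0603 and 0.0809 in edgeR, and the others had 0.157 or more. Of the 9, 7 had a positive and 2 a negative log2 fold change, with a median of 1.14 against -0.01 over all genes tested. The ages did not overlap for Tcf7 and Notum, both higher at 4 weeks, beside 5.07% of all genes in that direction, 4.08% in the other and 9.15% in either. Because the genes were proposed with this comparison in view, nothing is read from these counts. With juvenile replicates 4 and 5 left out, Tcf7 had an adjusted p of 0.0809 in edgeR and no member passed, while the calls over all genes went from 267 to 42 higher and from 253 to 31 lower.

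**Figure D3:**
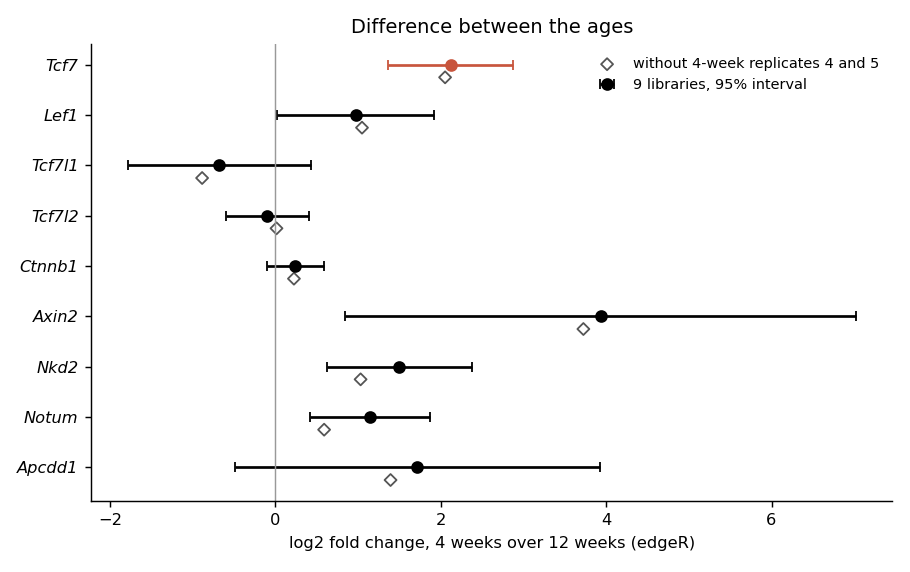
Log2 fold change of juvenile over adult libraries from edgeR for the 9 genes fitted, with its 95% interval from all 9 libraries (filled points, red for the gene past the threshold) and the value without juvenile replicates 4 and 5 (open diamonds). Tcf7 lies at 2.12 and moves to 2.05, Notum moves from 1.14 to 0.59, and the interval of Axin2 reaches from 0.85 to 7.02.

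Levels were compared between the genes only per length, as CPM per kilobase of merged exons. At 4 weeks Ctnnb1 was highest at 167 ± 10.0 (SD, n = 5), followed by Tcf7 at 49.0 ± 3.82, Notum at 29.1 ± 12.2 and Tcf7l2 at 14.2 ± 1.93. The ranges of neighbours in this order did not overlap down to Tcf7l2, and from there on every neighbour overlapped with the next: Nkd2 at 10.96, Lef1 at 5.08, Tcf7l1 at 4.31, Apcdd1 at 1.47, Axin2 at 1.05 and Nkd1 at 0.559. Among these 10 genes the juvenile OF thus had most RNA per kilobase of merged exons of Ctnnb1, Tcf7 and Notum. This order rests on the annotated exon lengths, and exons of Ctnnb1 and Notum overlap opposite-strand genes, as given above.

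At 12 weeks Ctnnb1 was again highest at 158 ± 36.3 CPM per kilobase (SD, n = 4). Tcf7l2 followed at 17.0 ± 6.19, then Notum at 14.8, Tcf7 at 12.5 ± 7.93, Tcf7l1 at 7.90, Nkd2 at 4.35 and Lef1 at 2.87. Below 1 CPM per kilobase stood Apcdd1 at 0.503, Nkd1 at 0.403 and Axin2 at 0.0731. Ctnnb1 lay above Tcf7l2 without overlap, and every later neighbour overlapped with the next. Genes farther apart in the order could still be separate: Tcf7l2 (11.6 to 23.8) and Notum (11.01 to 19.1) lay wholly above Nkd2 (2.57 to 6.94) and Lef1 (0.995 to 5.75). Axin2 and Nkd1 had the lowest means at each age.

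**Figure D4:**
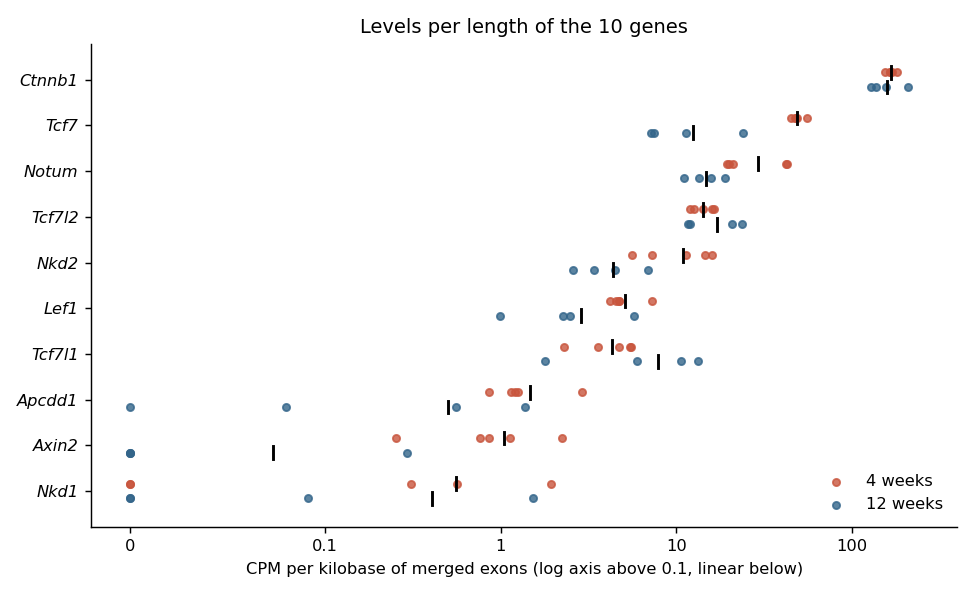
CPM per kilobase of merged exons for each gene and library (log axis above 0.1, linear below), juvenile in red above and adult in blue below, with a black tick at the mean of each age. Ctnnb1 stands highest at both ages (167 and 158), and Tcf7 lies second in juvenile (49.0) and below Tcf7l2 and Notum in adult libraries (12.5).

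The 5 feedback targets together summed to 101 to 230.0 CPM in juvenile and 48.6 to 72.5 CPM in adult libraries, a sum that is mostly Notum and Nkd2. Juvenile replicates 4 and 5 had 230.0 and 186 CPM, against 101 to 132 CPM in the other juvenile libraries. The spread within an age differed between the genes. Among juvenile libraries the coefficient of variation of normalized counts was 5.26% for Ctnnb1 and 8.04% for Tcf7, and it was 42.8% for Nkd2 and 43.7% for Notum. Among adult libraries it was 22.5% for Ctnnb1, 65.9% for Tcf7, 45.6% for Nkd2 and 25.6% for Notum. Juvenile replicate 4 had the highest juvenile value of 5 genes, among them Axin2, Nkd2, Notum and Apcdd1, and adult replicate 1 had the highest adult value of 4, among them Axin2, Nkd1 and Apcdd1.

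The other genes of the pathway were read from a list of 108, grouped by role, of which 77 passed the filter. In edgeR's test 2 were higher and 0 lower at 4 weeks, which is 2 of 77 beside 3.88% of all genes tested, with 9 at an unadjusted p under 0.05 (17.3% of all genes). Their median log2 fold change was 0.25, and 50 were positive and 27 negative. Both called genes encode receptors of the TNF receptor family listed as Wnt target genes.

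Tnfrsf19, also named Troy, had 1023, 855, 573, 1164 and 987 normalized counts in juvenile and 478, 189, 315 and 282 in adult libraries. All juvenile values lay above all adult ones, with a log2 fold change of 1.54 (SE 0.29, adjusted p = 0.0121 in edgeR). Tnfrsf11b, which encodes osteoprotegerin, the decoy receptor that restrains osteoclast formation, had 117, 78.7, 127, 302 and 90.5 in juvenile and 0, 3.14, 9.32 and 0 in adult libraries. It was thus near or at 0 at 12 weeks, with a log2 fold change of 5.47 (SE 1.09, adjusted p = 0.0160 in edgeR). Neither passed without juvenile replicates 4 and 5 (adjusted p = 0.122 and 0.161 in edgeR), and Tnfrsf11b did not pass without juvenile replicate 4 alone (adjusted p = 0.0606). The summed osteoblast markers differed in the same direction, although 2 of the 12 were lower at 4 weeks, as given above. The part of osteoblasts in these values was not tested.

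In the other groups of the pathway no gene passed edgeR's test, and the gene with the highest mean normalized count over the 9 libraries stands for each. Among ligands and their release, Wnt4 had a log2 fold change of 0.23 (SE 0.19) and Wls, the carrier of Wnt proteins to the cell surface, one of 0.64 (SE 0.36). Among receptors, Ryk had 0.34 (SE 0.29), and among R-spondin receptors and their partners, Lgr4 had 0.29 (SE 0.34). The secreted antagonist Wif1 had -0.27 (SE 0.24), and its group was the one with the lowest median, -0.64 over 7 genes. In that group Sost, which encodes sclerostin, had 0 to 37.4 normalized counts in juvenile and 67.6 to 329 in adult libraries, without overlap (log2 fold change -3.40, SE 1.03, adjusted p = 0.0881 in edgeR). By RNA hybridization on sections, the study detected sclerostin expression in cortical bone only and none in the OF. The source of the Sost counts in these libraries was not tested. Inside the cell, Csnk1a1, a kinase of the destruction complex, had -0.03 (SE 0.17), the co-activator Crebbp 0.61 (SE 0.34) and the TLE family member Tle5 0.20 (SE 0.23). Tbl1x, nearly as abundant as Crebbp and ahead of it by raw counts or by the mean of the age means, had -0.07 (SE 0.28).

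**Figure D5:**
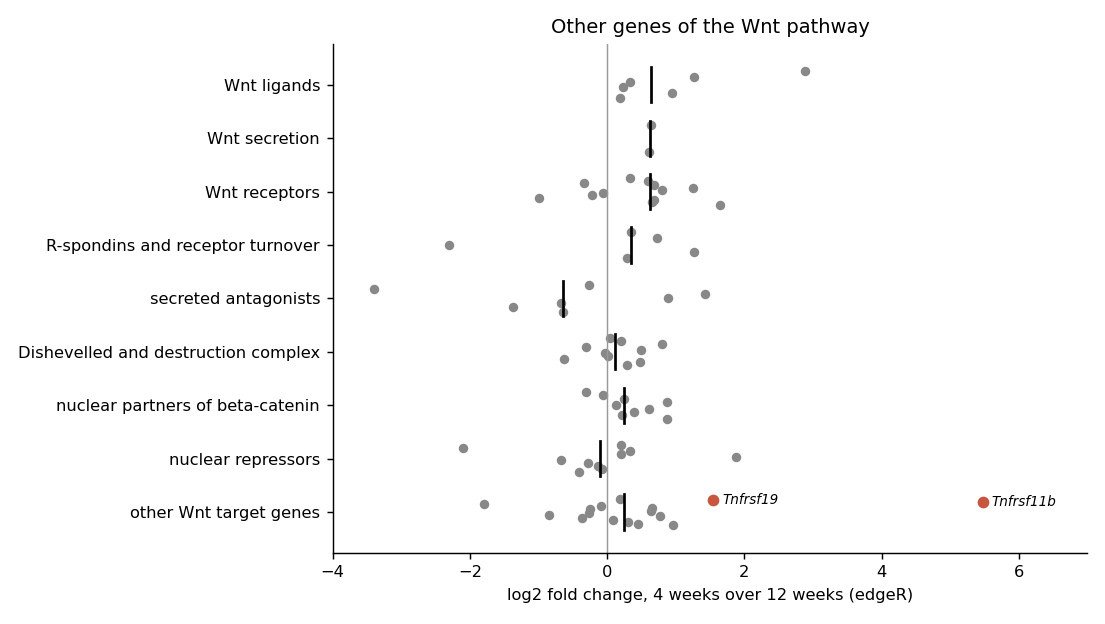
Log2 fold change of juvenile over adult libraries from edgeR for the 77 other pathway genes that passed the filter, grouped by role, with 1 point per gene and a black tick at the median of each group. Only Tnfrsf19 (1.54) and Tnfrsf11b (5.47), in red, pass the threshold, and the secreted antagonists have the lowest median (-0.64).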

How the data were processed

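Approximately 50 laser-cut pieces per sample were pooled by the authors, and libraries were made with SMART-Seq v4 and Nextera XT kits. Reads were mapped to mm10 with TopHat2 and Bowtie2 and, per the labels, assigned with featureCounts. The authors deposited whole-number counts per Ensembl gene, unnormalized. Tool versions, annotation release and strand setting are not given in the sources used here. Groups and replicate numbers follow the labels. The labels name no animals, although the study's text speaks of different mice, so p-values measure the spread between these libraries.

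Identifiers were matched to GENCODE on GRCm38. Ages were compared with edgeR 4.0.16 (R 4.3.3): filterByExpr, TMM, quasi-likelihood F test, Benjamini-Hochberg adjustment over 13418 genes, called at an adjusted p under 0.05. An SE is the log2 fold change divided by the square root of F. Log2 CPM used a prior count of 2. PCR copies are not independent molecules, so floors of 3 counts cover counting error only. The 36 library pairs held no copies. The fit was tested on simulated counts. Alternatives were other scalings, DESeq2 1.42.0, limma 3.58.1, no filter, 10 counts in every library, a replicate block and left-out libraries. The genes, pathway and marker lists and the alternatives were chosen with earlier results of these data known. Named pathway genes are those called and, in groups with none called, that with the highest mean count. Sost and Tbl1x were named after their values were seen. Figures were drawn with matplotlib 3.10.9.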

Additional observations from a re-analysis of the deposited data

Results flagged for a closer look

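Each value by age was compared with the other libraries of its age by the gap to the nearest library over the whole range (Dixon's ratio). Over 28 groups of 4 or 5 libraries 5 stood apart, where chance gives about 1 in 20 groups, or 1.4, for independent and normally distributed values. Counts near 0 are not such values, and the shares are built from the same counts, so no excess over chance is read from this. Lef1 had 424.9 normalized counts in juvenile replicate 2 against 240.4 to 274 in the others, and in the same library its share of the TCF/LEF sum was 10.04% against 5.762% to 6.724%, which is largely the same observation. Apcdd1 had 258 normalized counts in juvenile replicate 4 against 73.17 to 104.7. Adult replicate 1 had 9.431 normalized counts of Axin2 where the other adult libraries had 0, and 40.63 of Nkd1 against 0 to 2.359. Axin2 and Nkd1 rest on 13 and 56 raw counts in that library. No cause was tested.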

How the results depend on the processing

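Tcf7 was higher at 4 weeks in every alternative that was run. Its log2 fold change was 2.10 to 2.36 over 8 alternatives with all 9 libraries (adjusted p 3.06e-07 to 0.0401) and 1.90 to 2.65 with 1 library left out (0.000169 to 0.0213), and the call ended only without juvenile replicates 4 and 5 together (2.05, adjusted p = 0.0809). Tcf7l2 changed sign, to 0.028 with a replicate block, 0.015 without juvenile replicates 4 and 5 and 0.12 without adult replicate 2, within a range of -0.26 to 0.12 with 1 library left out. Genes called over all genes were 267 higher and 253 lower at 4 weeks, 719 and 771 in DESeq2, 42 and 31 without juvenile replicates 4 and 5, and 145 to 306 and 117 to 345 with 1 library left out. Members called higher were 1, against 3 with 10 counts in every library (Tcf7, Nkd2, Notum), 4 in DESeq2 (these and Axin2), 0 without juvenile replicates 4 and 5 and 1 to 2 with 1 library left out, and none was called lower. Nkd2 passed without juvenile replicate 2 or adult replicate 2, and Axin2 without adult replicate 1, where all adult libraries left are at 0. Other pathway genes called higher were 2, against 5 in DESeq2, 0 without juvenile replicates 4 and 5 and 1 to 3 with 1 library left out. In limma and with 10 counts in every library 2 were also called higher, but not the same 2. Tnfrsf11b did not pass in limma (log2 fold change 6.25, adjusted p = 0.122) and was removed by the minimum of 10 counts. Other pathway genes called lower were 0, against 1 with 10 counts in every library, 2 in DESeq2, 1 in limma and 0 to 1 with 1 library left out. Marker genes called higher were 8, against 5 without juvenile replicates 4 and 5 and 5 to 9 with 1 library left out. Those called lower were 26, against 12 with 10 counts in every library, 17 in limma, 6 without juvenile replicates 4 and 5 and 18 to 32 with 1 library left out. Among the 26 were 8 of the 9 neutrophil and 8 of the 9 erythroid markers tested, beside 1.89% of all genes tested called lower. The 6-letter TCF core gave 1 member window where the heptamers gave 0. The median log2 fold change of all genes moved from -0.01 to 0.10 in limma. Of the members, the minimum of 10 counts in every library removes Axin2, Nkd1 and Apcdd1, which have no value there.

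Libraries with the same replicate number did not deviate together (correlations -0.03 to 0.03), and the labels name no pairs, so the samples were not treated as paired. Libraries with different numbers were not compared in this way, and shared handling of libraries with the same number was not tested. With the replicate block 53 genes were called higher and 36 lower, 1 member (Tcf7, adjusted p = 0.0401), 0 other pathway genes (Tnfrsf19 adjusted p = 0.0585, Tnfrsf11b 0.0990), and 4 marker genes higher and 12 lower. The block adds terms to the fit and so leaves less of the data to estimate the spread, and juvenile replicate 5 has no adult library of its number. The cause of these changes was not tested. Axin2 and Nkd1 had at most 84.8 normalized counts and were at 0 in several libraries, so their values are the least precise.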
